A study of Homo sapiens with 26 samples.

Results

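Keratins are the intermediate filament proteins of epithelial cells, and the 10 genes described here are 6 squamous keratins and 4 simple keratins measured in 3 pancreatic ductal adenocarcinoma cell lines. The squamous set is KRT4, KRT5, KRT6A, KRT13, KRT15 and KRT17, and the simple set is KRT7, KRT18, KRT19 and KRT20. They were listed by name, and the rule takes no measured value, though the list was drawn up with earlier results of these data known. Each is the row whose Ensembl identifier maps to that symbol, and all 10 were found among the 62703 gene rows of the Panc10.05 and BxPC3 tables and the 62754 of the ASPC1 table.

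The study changed the level of HNF4α, a nuclear receptor of liver, gut and pancreas whose gene HNF4A makes isoforms from the promoters P1 and P2, and sequenced polyadenylated RNA in 26 libraries. Panc10.05 and BxPC3 carried a doxycycline-inducible construct for the isoform labelled P1-a2 or P2-a8, or a control labelled NC (GFP in Panc10.05, EV in BxPC3), with 2 libraries a group, and doxycycline was given to the controls too. The dose was 500 ng/mL in every BxPC3 group. In Panc10.05 it was 25 ng/mL in the P1-a2 and NC groups but 12.5 ng/mL in the P2-a8 group, and there the isoform cannot be told apart from its dose. ASPC1 (AsPC-1) carried CRISPR interference guides, which bring an inactive Cas9 to a promoter and lower its transcription: sgP1E and sgP1J against P1, sgP2D and sgP2G against P2, sgDual2 and sgDual3 against both, and sgNC as the control, with 2 libraries a guide and no doxycycline dose in the labels. Whether a line was 1 clone or a pool of cells is not given in the sources used here.

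Keratin filaments are built from pairs of one type I and one type II protein, so each epithelium expresses matched partners. KRT18 with its type II partner KRT8 is the basic pair of simple epithelia, KRT7 and KRT19 are added in ducts, including those of the pancreas, and KRT20 belongs to intestinal and gastric lining. In stratified squamous epithelia KRT5 with KRT14 or KRT15 marks the basal layer, KRT4 with KRT13 the upper layers of moist mucosa, and KRT6A with KRT16 or KRT17 activated or wounded cells, and KRT5, KRT6A and KRT17 in a pancreatic tumour are used as marks of its basal-like or squamous form.

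By GENCODE v29 on GRCh38, the type II genes KRT4, KRT5, KRT6A and KRT7 and the type I gene KRT18 lie on chromosome 12, and KRT13, KRT15, KRT17, KRT19 and KRT20 lie on chromosome 17. KRT5 (ENSG00000186081) spans 52514575 to 52520687 and KRT4 (ENSG00000170477) spans 52806549 to 52814551, both on the minus strand of chromosome 12. Of the 10 members, the promoter reference used here held only KRT4, KRT5 and KRT20. The 250 bases before the RefSeq start site (GRCh38.p14) are shown for KRT5 and KRT4. Both genes were expressed in BxPC3, at most 3.68 CPM in the other lines, and lower in BxPC3 with P1-a2 than with P2-a8. Capitals mark a match to the half-site of the p53 family, which includes the squamous regulator p63. The KRT5 window is chr12:52520395-52520644 and the KRT4 window is chr12:52814117-52814366, each read on the minus strand. Both windows lie inside the GENCODE spans, which begin further upstream, so positions before the start refer to the RefSeq start.
KRT5: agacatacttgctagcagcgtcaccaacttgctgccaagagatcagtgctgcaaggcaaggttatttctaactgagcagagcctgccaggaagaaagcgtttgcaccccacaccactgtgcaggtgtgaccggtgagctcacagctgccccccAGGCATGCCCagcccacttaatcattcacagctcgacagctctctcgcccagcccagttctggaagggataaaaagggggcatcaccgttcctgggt
KRT4: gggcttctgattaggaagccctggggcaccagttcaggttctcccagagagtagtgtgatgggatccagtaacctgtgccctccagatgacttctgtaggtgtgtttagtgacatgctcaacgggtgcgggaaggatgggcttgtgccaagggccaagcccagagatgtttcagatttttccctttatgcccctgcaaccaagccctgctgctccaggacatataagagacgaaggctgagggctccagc

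The half-site match in KRT5 begins 97 bases before the start, and the KRT4 window has none. The window of the simple keratin KRT20, not shown, also holds 1 match, which begins 23 bases before the start. Of 35116 RefSeq promoter windows of this length, searched on both strands, 5.57% hold such a half-site. An HNF4 site (CAAAGTCCA) was found in 0.325% of all windows and in neither the KRT5 nor the KRT4 window. The same held for an AP-1 site (TGANTCA, 6.57% of windows), the TATA box letters TATAAA (10.7%) and a GC box (GGGCGG, 42.6%). Only these letters were searched, so variants of a site, a TATA box included, would be missed. These are matches of letters, and binding was not measured.

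Depth, as summed gene counts per library, was 34618745 to 46827673 for Panc10.05, 26369154 to 37483772 for BxPC3 and 26079388 to 50662077 for ASPC1. Levels are given as CPM, the count divided by the TMM-scaled library total and multiplied by a fixed constant. HNF4A stood at 0.0580 to 0.240 CPM in the Panc10.05 controls, at 10.7 and 12.98 with P1-a2 and at 37.6 with P2-a8, and in BxPC3 at 0.464 to 1.08, 9.76 to 11.6 and 12.6 to 14.2. In ASPC1 it stood at 206 to 220 CPM with sgNC, 109 to 146 with the P1 guides, 76.7 to 93.9 with the P2 guides and 3.19 to 13.6 with the dual guides. These gene totals do not separate the isoforms. The epithelial markers EPCAM, KRT8 and CLDN4 were above 100 CPM in every library, while ASPC1 was low in CDH1 (13.3 to 77.3 CPM) and ESRP1 (0.897 to 17.4 CPM). Markers of leukocytes, endothelium, fibroblasts, acini and islets summed to 0.634 to 18.5 CPM over the 11 genes, with COL1A1 the largest term in Panc10.05 and BxPC3, and INS was at 0 throughout. In bulk RNA, fewer cells that express a keratin and less RNA per cell cannot be told apart.

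BxPC3 was the only line of these 3 with squamous keratins at the level of its simple keratins. Levels of different genes are compared per kilobase of annotated exons, and in the BxPC3 controls KRT5 stood at 1217 CPM per kb (1176 and 1259 in its libraries), KRT17 at 1174 (1147 and 1202) and KRT19 at 1143 (1116 and 1170). These 3 genes overlapped between libraries and cannot be ranked. Below them came KRT6A at 842, KRT13 at 544, KRT7 at 473, KRT18 at 313, KRT4 at 70.7 and KRT15 at 9.19 CPM per kb, with no overlap between neighbours. KRT20 had at most 4 counts in any BxPC3 library. The 6 squamous keratins held 66.7% of the summed per-kb level of the 10 genes in the controls.

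The controls of Panc10.05 expressed 3 simple keratins, KRT18 at 473, KRT7 at 287 and KRT19 at 253 CPM per kb, followed by KRT17 at 2.87 and KRT15 at 1.23. KRT6A and KRT13 were at 0.104 and 0.0438 CPM per kb there, and KRT4, KRT5 and KRT20 had 3 counts or fewer in each control library, which is treated here as the floor of detection. ASPC1 expressed KRT18 at 1172 and KRT19 at 1063 CPM per kb with sgNC and almost no KRT7, at 0.327 CPM per kb, about the level of KRT20 at 0.329. KRT15, at 1.88 CPM per kb, was its leading squamous keratin, and KRT4, KRT5 and KRT6A were at the floor. Squamous keratins held 0.418% of the summed level in the Panc10.05 controls and 0.0919% in the ASPC1 controls. The exon length of KRT15 is long in the annotation (7069 bases), which lowers its per-kb value. With longest transcripts as the lengths, the squamous share of the BxPC3 controls was 63.4% and 63.6%.

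**Figure D1:**
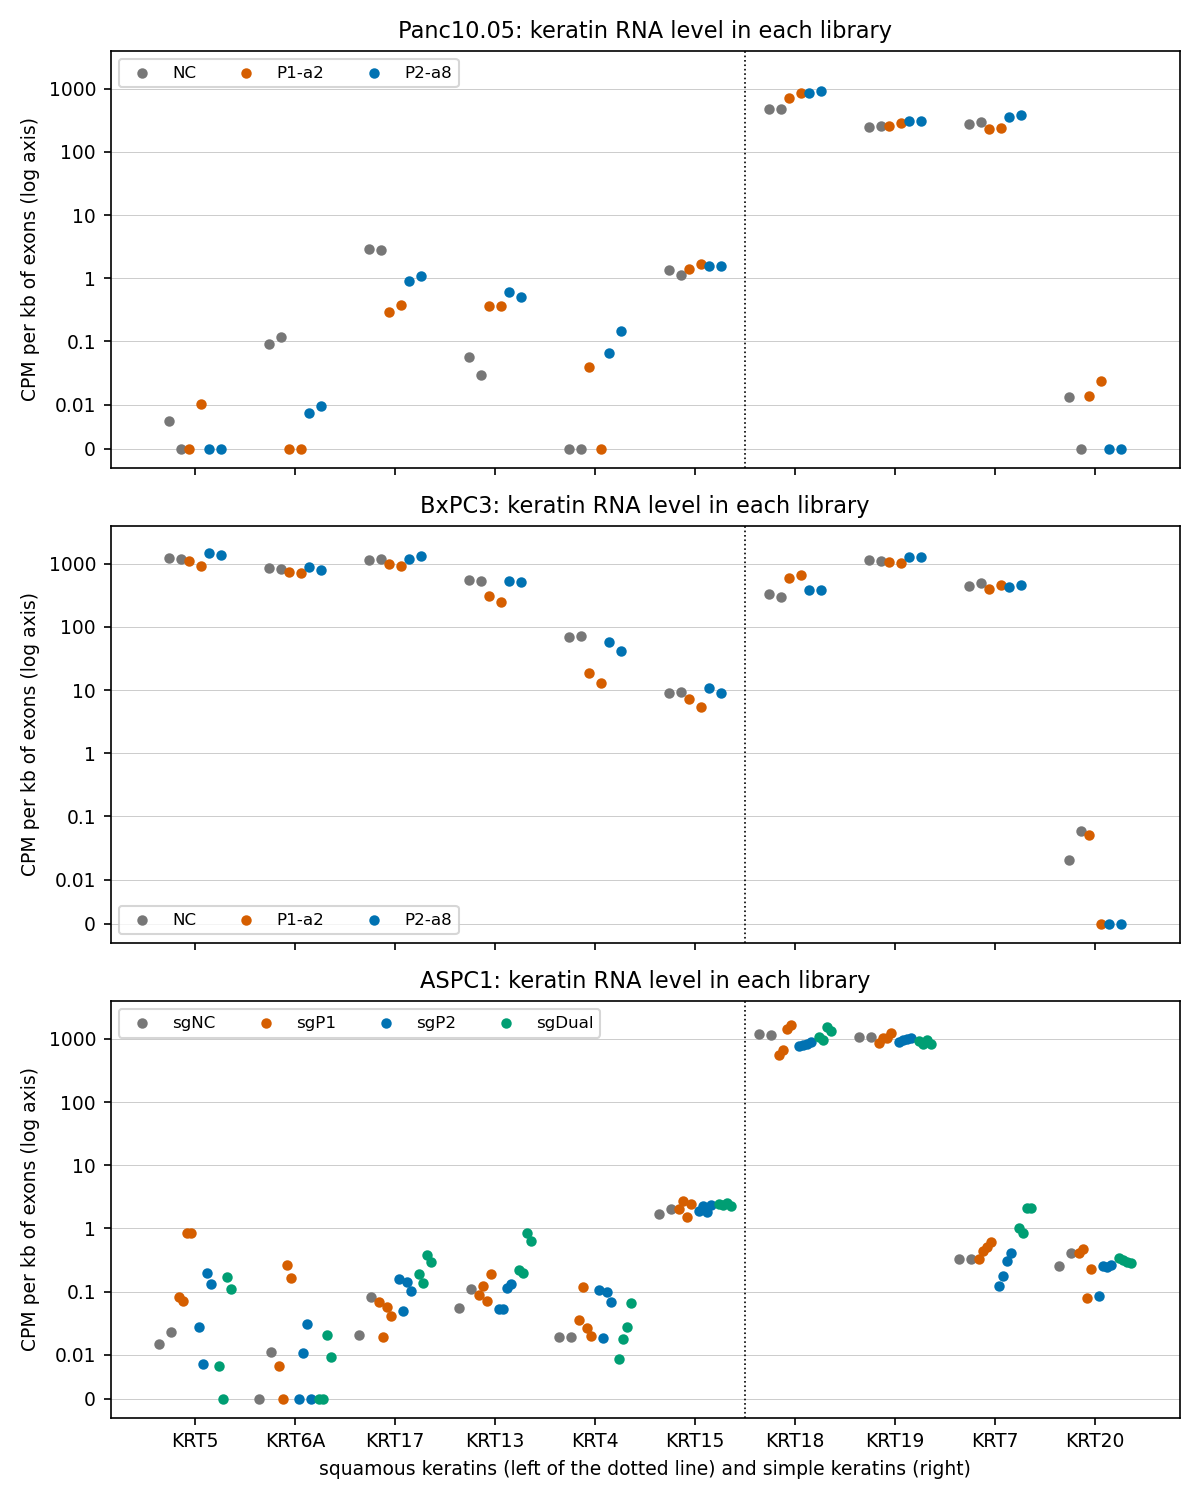
Level of each keratin in every library of Panc10.05, BxPC3 and ASPC1, in CPM per kb of exons on a log axis with 0 drawn at the bottom; each point is 1 library, coloured by group. KRT5, KRT6A, KRT17 and KRT13 lie between 245 and 1491 CPM per kb in all 6 BxPC3 libraries and under 3 CPM per kb in every library of the other lines.

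With P1-a2 in BxPC3, 5 of the 6 squamous keratins fell and KRT18 rose. In this comparison with NC, 6 of the 9 members tested passed the threshold (adjusted p under 0.05 over all genes by edgeR's quasi-likelihood test with Benjamini-Hochberg adjustment, as throughout), 5 of them lower and 1 higher, and 32% of all genes tested passed (17.1% higher, 14.9% lower). The median log2 fold change (log2 change in what follows) was -0.41 over the 6 squamous keratins, -0.10 over the 3 simple keratins tested and -0.01 over all genes. KRT20 did not pass the filter on low counts.

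KRT4, of suprabasal mucosa, was at 231 and 237 CPM in the control libraries and at 61.8 and 43.7 with P1-a2. Every P1-a2 library lay below every control, and the log2 change was -2.15 (SE 0.24, adjusted p = 0.00435). Its type I partner KRT13 was at 1592 and 1578 CPM in the controls and at 916 and 713 with P1-a2, and changed by -0.96 on the log2 scale (SE 0.10, adjusted p = 0.000307). The pair of moist mucosa had the 2 largest falls among the members. KRT15, a basal keratin, went from 64.4 and 65.5 CPM to 51.8 and 38.5 (log2 change -0.53, SE 0.15, adjusted p = 0.0308).

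The 2 keratins of activated squamous cells fell by less. KRT17 was at 3590 and 3761 CPM in the controls and at 3082 and 2890 with P1-a2 (log2 change -0.30, SE 0.06, adjusted p = 0.00272). KRT6A was at 2530 and 2401 CPM in the controls and at 2190 and 2082 with P1-a2 (log2 change -0.21, SE 0.06, adjusted p = 0.0173). The groups did not overlap for either gene. KRT5, the main basal keratin, was at 5402 and 5049 CPM in the controls and at 4798 and 4009 with P1-a2, and its log2 change of -0.25 (SE 0.08) did not pass (adjusted p = 0.0544). KRT5 passed in 6 alternatives, DESeq2 among them (adjusted p = 0.0261), and the calls of KRT15 and KRT6A were lost without 1 or other library (largest adjusted p 0.132 without NC replicate 2 for KRT15 and 0.128 without NC replicate 1 for KRT6A).

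KRT18 stood at 1054 and 960 CPM in the BxPC3 controls and at 1953 and 2146 with P1-a2, and its log2 change was 1.03 (SE 0.06, adjusted p = 5.11e-07). Its partner KRT8 rose with it, from 1668 ± 139 to 3572 ± 221 CPM (SD, n = 2), a log2 change of 1.1. The 2 genes lie side by side in opposite directions and share 525 exon bases (16.3% of those of KRT18), and the strand setting of the counting is not given in the sources used here. KRT19 was at 2733 and 2606 CPM in the controls and at 2524 and 2450 with P1-a2, and did not pass (adjusted p = 0.118). KRT7 was at 1851 and 2020 CPM against 1648 and 1915, and its groups overlapped (adjusted p = 0.259). Of the 3 simple keratins tested, KRT18 was the only one to pass here, and KRT7 passed as lower without P1-a2 replicate 2 (adjusted p = 0.0307).

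**Figure D2:**
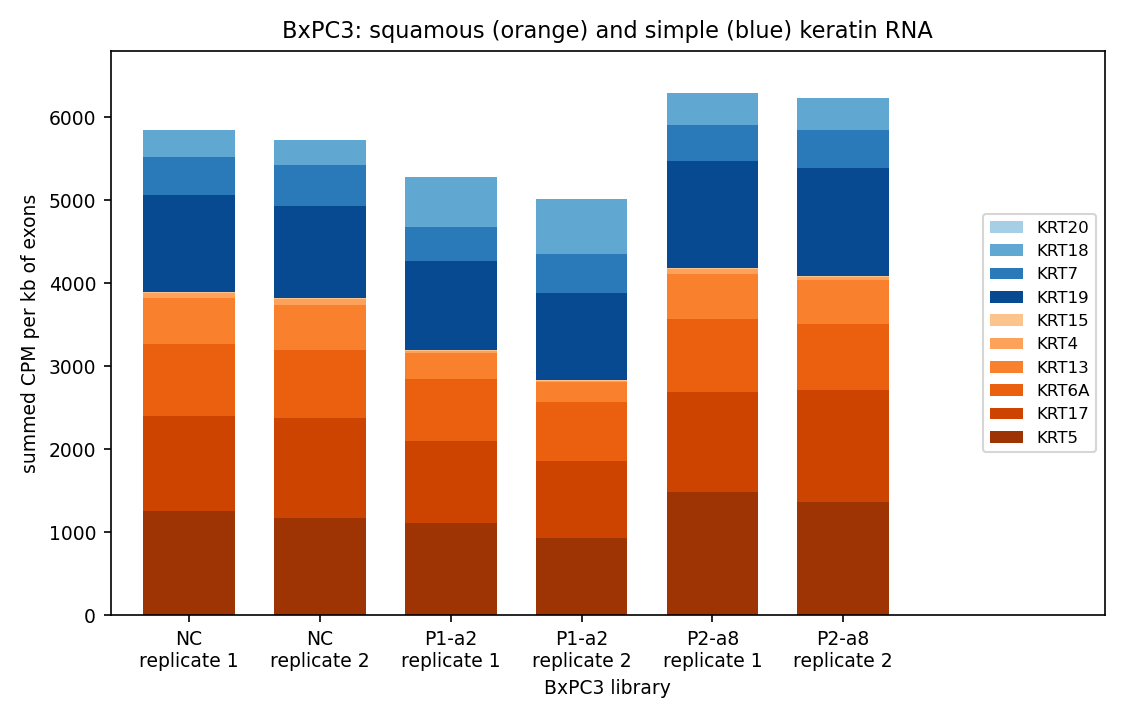
Stacked levels of the 10 keratins in each BxPC3 library, in summed CPM per kb of exons (squamous in orange, simple in blue). The 2 P1-a2 libraries have the lowest totals, 5281 and 5015, and the lowest squamous levels, 3191 and 2832.

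Summed over the members, the squamous keratins gave 3895 and 3820 CPM per kb in the control libraries, 3191 and 2832 with P1-a2, and 4183 and 4085 with P2-a8. The squamous share was 66.6% and 66.7% in the controls, 60.4% and 56.5% with P1-a2, and 66.6% and 65.6% with P2-a8. The P1-a2 share lay below the other 4 libraries. Without KRT18 in the sum the P1-a2 share was 68.3% and 65.1%, against 69.9% to 70.9% in the other 4. These shares are descriptions, with no test.

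With P2-a8 in BxPC3, 2 simple keratins rose and no squamous keratin passed in the main fit. Of the 9 members tested, 2 passed against NC, both of them simple and higher, where 6.99% of all genes passed (4.3% higher, 2.69% lower). KRT18 was at 1235 and 1229 CPM with P2-a8 (log2 change against NC 0.29, SE 0.06, adjusted p = 0.0146), and KRT19 was at 3009 and 3036 (0.18, SE 0.05, adjusted p = 0.0408). None of the 6 squamous keratins passed in the main edgeR fit or with DESeq2. Of them 1, KRT5, had an unadjusted p under 0.05, at 6401 and 5878 CPM (log2 change 0.23, SE 0.08, adjusted p = 0.161). By the data the replicate numbers pair these libraries, and with the number as a block in edgeR KRT5 passed as higher (adjusted p = 0.000231). KRT5 passed as higher in 3 of 10 alternatives (smallest adjusted p 3.48e-05, with no filter on low counts). KRT4 was at 190 and 139 CPM, below both controls, with an adjusted p of 0.328. The KRT18 call was lost without either P2-a8 library or NC replicate 2 (largest adjusted p 0.217), and that of KRT19 without any 1 library of either group and in 4 other alternatives, DESeq2 among them (largest adjusted p 0.395).

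Set against each other in BxPC3, the isoforms differed in 8 of the 9 members tested, where 22.5% of all genes differed (11.6% higher with P1-a2, 10.8% lower). By the data the replicate numbers pair these libraries too, and a replicate block left each member's call as it was. All 6 squamous keratins were lower with P1-a2 than with P2-a8: KRT4 by a log2 change of -1.65 (SE 0.24), KRT13 -0.93 (SE 0.10), KRT15 -0.62 (SE 0.15), KRT5 -0.48 (SE 0.08), KRT17 -0.42 (SE 0.06) and KRT6A -0.20 (SE 0.06), with adjusted p between 0.000729 and 0.0269. For each of the 6, both P1-a2 libraries lay below both P2-a8 libraries. Among the simple keratins KRT18 was higher with P1-a2 (log2 change 0.73, SE 0.06, adjusted p = 2.44e-05), KRT19 was lower (-0.28, SE 0.05, adjusted p = 0.0016) and KRT7 did not pass (-0.04, adjusted p = 0.766). HNF4A itself was at 10.7 ± 1.32 CPM with P1-a2 and at 13.4 ± 1.15 with P2-a8 (SD, n = 2), a difference that did not pass (adjusted p = 0.217). The KRT6A call was lost in 4 alternatives, 2 of which left out 1 library (largest adjusted p 0.36), that of KRT15 without P2-a8 replicate 1 (0.0769) and that of KRT4 with no filter on low counts (0.0639).

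In Panc10.05, KRT18 rose with both isoforms, KRT17 and KRT6A fell from already low levels, and KRT13 rose from the edge of detection. Against NC, P1-a2 passed the threshold for 6 of the 7 members tested, 3 in each direction, and P2-a8 for all 7, 5 higher and 2 lower. The background was high, since 62% of all genes passed with P1-a2 (31.5% higher, 30.5% lower) and 46.2% with P2-a8 (23.7% higher, 22.5% lower). Both use the same 2 control libraries. KRT4, KRT5 and KRT20 did not pass the filter on low counts. KRT6A passed it only through the controls and KRT13 only through the isoform groups, so their directions against NC followed from the filter. Their calls against NC are therefore no separate support for a fall or a rise.

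KRT18 was at 1524 and 1518 CPM in the Panc10.05 controls, at 2329 and 2713 with P1-a2 and at 2770 and 2967 with P2-a8. The groups did not overlap, and the log2 change was 0.73 (SE 0.06, adjusted p = 7.89e-13) with P1-a2 and 0.92 (SE 0.06, adjusted p = 4.42e-15) with P2-a8. KRT8 rose by 0.73 and 0.96 on the log2 scale. KRT7, of ducts, was at 1152 and 1198 CPM in the controls, at 961 and 993 with P1-a2 and at 1454 and 1584 with P2-a8. It was thus lower with P1-a2 (log2 change -0.27, SE 0.06, adjusted p = 0.000165) and higher with P2-a8 (0.37, SE 0.06, adjusted p = 1.8e-06). KRT19 was at 581 and 602 CPM in the controls, 609 and 672 with P1-a2 and 721 and 710 with P2-a8, and rose with P2-a8 (0.27, SE 0.06, adjusted p = 0.000185) while P1-a2 did not pass (0.11, adjusted p = 0.0917).

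KRT17 was the squamous keratin with the most RNA per length in the Panc10.05 controls, at 9.05 and 8.90 CPM. It was at 0.899 and 1.17 CPM with P1-a2 and at 2.80 and 3.41 with P2-a8, so that the 3 groups stood apart. The log2 change was -3.10 (SE 0.18, adjusted p = 6.61e-19) with P1-a2 and -1.54 (SE 0.15, adjusted p = 2.49e-11) with P2-a8. KRT6A had 11 and 12 counts in the controls, 0 and 0 with P1-a2 and 1 and 1 with P2-a8. Taking 3 counts per library as the floor, it was at least 4.30-fold lower with P1-a2 and at least 4.12-fold lower with P2-a8 (adjusted p 5.08e-05 and 0.00145), and the P2-a8 call was lost without P2-a8 replicate 1 (adjusted p 0.0508).

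KRT13 had 7 and 3 counts in the Panc10.05 controls (0.168 and 0.0869 CPM), 41 and 48 with P1-a2 (1.05 and 1.04 CPM) and 83 and 52 with P2-a8 (1.77 and 1.47 CPM). On the log2 scale it rose by 2.97 with P1-a2 (SE 0.43, adjusted p = 9.47e-08) and by 3.61 with P2-a8 (SE 0.40, adjusted p = 5.51e-10), but stayed below 2 CPM. Of its exon bases, 476 (16.3%) overlap the antisense gene AC019349.1, whose reads cannot be told apart from its own without the strand setting. KRT4, its mucosal partner, had 0 and 0 counts in the controls, 5 and 0 with P1-a2 and 10 and 17 with P2-a8, at least 4.36-fold higher with P2-a8 against the floor, with no test. KRT15 was at 9.39 and 7.997 CPM in the controls, 9.83 and 11.7 with P1-a2 and 11.03 and 11.2 with P2-a8. Its rises of 0.31 (adjusted p = 0.019) and 0.35 (adjusted p = 0.0113) were both lost without NC replicate 2 (adjusted p 0.212 and 0.164).

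**Figure D3:**
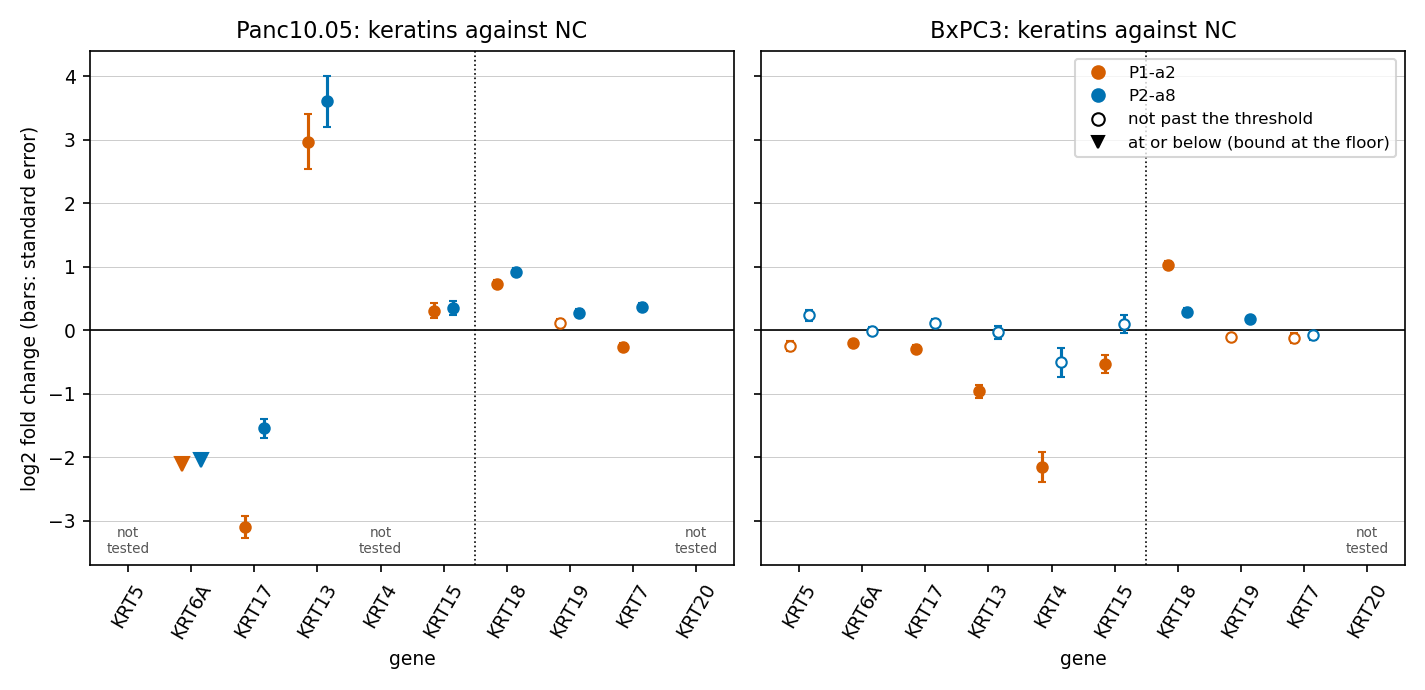
Log2 fold change against NC with its standard error for each keratin in Panc10.05 and BxPC3 (P1-a2 orange, P2-a8 blue; open points did not pass the threshold, triangles are bounds at the floor). KRT18 is above 0 in all 4 comparisons, and KRT13 is at 2.97 and 3.61 in Panc10.05 but at -0.96 and -0.03 in BxPC3.

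Between the isoforms in Panc10.05, 5 of 7 members differed and all 5 were lower with P1-a2, where 46.9% of all genes differed (22.2% higher with P1-a2, 24.7% lower). The log2 changes were -1.56 for KRT17 (SE 0.20), -0.64 for KRT7 (SE 0.06), -0.64 for KRT13 (SE 0.27), -0.19 for KRT18 (SE 0.06) and -0.16 for KRT19 (SE 0.06). The adjusted p was 2.56e-08 for KRT17 and 7.98e-12 for KRT7, and between 0.0154 and 0.0473 for the other 3, each of which lost the call without 1 or more single libraries. HNF4A was itself lower with P1-a2 than with P2-a8 in this line (log2 change -1.66), and the doses differed.

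The responses of the lines were compared by an interaction contrast (BxPC3 minus Panc10.05) over the 7 members tested in both. Of these, KRT6A passed the Panc10.05 filter only through the controls and KRT13 only through the isoform groups. Their differences against NC, though counted below, are therefore no separate support for a difference between the lines. For P1-a2 against NC, 6 of the 7 differed, where 36.4% of all genes did. The difference was -3.93 for KRT13 (SE 0.41), 2.79 for KRT17 (SE 0.15), -0.85 for KRT15 (SE 0.20), 0.29 for KRT18 (SE 0.09) and -0.23 for KRT19 (SE 0.08) on the log2 scale, and KRT6A also differed, with Panc10.05 at the floor. For P2-a8 against NC, 5 of the 7 differed (23.5% of all genes): KRT13 by -3.64 (SE 0.39), KRT17 by 1.66 (SE 0.13), KRT18 by -0.62 (SE 0.09), KRT7 by -0.45 (SE 0.10), and KRT6A. For P1-a2 against P2-a8, 3 of the 7 differed (22.3% of all genes), with KRT17 at 1.13 (SE 0.17), KRT18 at 0.91 (SE 0.09) and KRT7 at 0.59 (SE 0.10). KRT18 was higher with P2-a8 than with P1-a2 in Panc10.05, a call lost without P1-a2 replicate 1 (adjusted p 0.452), and lower with P2-a8 in BxPC3. The KRT18 and KRT19 differences for P1-a2 against NC were lost without single libraries. Line, dose, control construct and sequencing project cannot be told apart here.

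In ASPC1 no keratin passed with guides against P1 or P2 alone, while KRT7, KRT13 and KRT17 rose from very low levels with dual guides. Each target group took 4 libraries of 2 guides as replicates, against 2 libraries of 1 control guide. Differences between guides thus entered the spread, and 0 calls do not show unchanged levels. The 2 libraries of a guide are not independent replicates of its target. P-values of called changes, those with the dual guides included, therefore rest on 2 guides a target, not on 4 replicates. With 1 control guide, an effect of a guide cannot be told apart from that of its target. Against sgNC, 0 of 10 members passed with the P1 guides (0.265% of all genes, 0.1% higher and 0.165% lower) and 0 of 10 with the P2 guides (3.42% of all genes, 1.66% higher and 1.76% lower) by edgeR's quasi-likelihood test. DESeq2 called 0 in both as well. At an unadjusted p under 0.05 there was 1 member, KRT5, with the P1 guides and 0 with the P2 guides. Between the P2 and P1 guides 0 of 10 passed by either tool (4.3% of all genes with edgeR, 2.17% higher and 2.13% lower), and 4 had an unadjusted p under 0.05. In these 3 comparisons the replicate numbers pair the libraries, and with the number as a block 0 of 10 members passed in each, while 127, 972 and 1204 genes passed in place of 45, 581 and 731.

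KRT18 with the P2 guides was at 2492, 2599, 2656 and 2912 CPM, below both sgNC libraries at 3815 and 3728. Its log2 change of -0.50 (SE 0.36) did not pass (adjusted p = 0.518), and it passed when only these groups were fitted (adjusted p = 0.00695).

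With the dual guides, 3 of 10 members passed against sgNC, all higher, where 35.6% of all genes passed (17.8% higher and 17.8% lower). KRT7 was at 1.362 and 1.32 CPM with sgNC and at 4.10, 3.44, 8.44 and 8.47 with the dual guides, which did not overlap (log2 change 2.19, SE 0.47, adjusted p = 0.00278). KRT13 was at 0.158 and 0.321 CPM with sgNC and at 0.631, 0.578, 2.42 and 1.85 with the dual guides (2.50, SE 0.68, adjusted p = 0.0107). KRT17 was at 0.0634 and 0.257 CPM with sgNC and at 0.603, 0.433, 1.164 and 0.926 with the dual guides (2.26, SE 0.59, adjusted p = 0.00782). KRT13 and KRT17 rested on 5 and 10, and 2 and 8, counts in the control libraries. Both calls were lost without sgNC replicate 1 (adjusted p 0.13 and 0.131) and without sgDual3 (0.0851 and 0.0686).

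The abundant keratins of ASPC1 did not pass with the dual guides. KRT18 ran from 3129 to 4875 CPM over the 4 dual libraries (median 3821) against 3815 and 3728 with sgNC (adjusted p = 0.93). KRT19 ran from 1936 to 2218 CPM and lay below both controls, at 2476 and 2492, without passing (log2 change -0.27, SE 0.11, adjusted p = 0.0756). KRT15 was at 15.9 to 17.7 CPM against 12.01 and 14.5 (adjusted p = 0.143), and KRT20 at 0.517 to 0.631 against 0.475 and 0.738 (adjusted p = 0.897). KRT4, KRT5 and KRT6A stayed below 1 CPM in each dual and sgNC library. The squamous share of the members' summed level was 0.0804% and 0.103% with sgNC, 0.146% to 0.158% with the dual guides, 0.113% to 0.181% with the P1 guides and 0.131% to 0.141% with the P2 guides. In this share all guides lay above sgNC. The squamous sum itself was 1.81 and 2.30 CPM per kb with sgNC and 2.21 to 2.75 with the P2 guides, which overlapped. The simple sum was also lower with the P2 guides, at 1807 against 2236 CPM per kb on average.

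KRT7, KRT13 and KRT17 were also higher with the dual guides than with the single-promoter guides. KRT7 was higher than with the P1 guides (log2 change 1.68, SE 0.35, adjusted p = 0.00177) and the P2 guides (2.56, SE 0.37, adjusted p = 9.08e-05), KRT13 likewise (2.03 and 2.39, adjusted p 0.00427 and 0.00171) and KRT17 likewise (2.34 and 1.14, adjusted p 0.000801 and 0.029). Against the P1 guides 38.3% of all genes passed (18.6% higher, 19.7% lower), and against the P2 guides 46.4% (22.8% higher, 23.5% lower). KRT6A was called at least 3.67-fold lower than with the P1 guides (adjusted p = 0.0467), with groups that overlapped and reads mainly in sgP1J. It passed the filter on low counts only through sgP1J, so this call is no separate support for a fall. The KRT17 call against the P2 guides was lost without sgDual3 (adjusted p 0.396) and in 6 other alternatives, that of KRT6A in 8, and that of KRT13 against the P1 guides without sgDual3 (0.155). These comparisons share the dual libraries.

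Guides with the same target differed in their keratins. Between sgP1E and sgP1J, 4 of 10 members differed, where 14.5% of all genes did. KRT18 was at 1779 and 2183 CPM with sgP1E and at 4589 and 5271 with sgP1J, one pair below and the other above both controls (log2 change sgP1E against sgP1J -1.32, SE 0.11, adjusted p = 5.63e-06). KRT8 followed it, at 4582 against 8925 CPM. KRT5 was at 0.351 and 0.301 CPM with sgP1E and at 3.68 and 3.68 with sgP1J, the highest of any ASPC1 guide (-3.46, SE 0.29). KRT6A had 1 and 0 counts with sgP1E and 26 and 15 with sgP1J, at least 8.35-fold higher with sgP1J, the only guide through which it passed the filter. KRT20 was higher with sgP1E, at 0.761 and 0.873 CPM against 0.146 and 0.420 (1.53, SE 0.44, adjusted p = 0.0325).

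Without sgP1J the P1 guides gave a KRT18 log2 change of -0.93 against sgNC (adjusted p = 0.00898), and without sgP1E one of 0.38 that did not pass (adjusted p = 0.386). The 2 dual guides differed in KRT7 (3.77 ± 0.471 CPM with sgDual2 and 8.46 ± 0.0163 with sgDual3, SD, n = 2, adjusted p = 0.0043), KRT13 (0.605 and 2.13 CPM, adjusted p = 0.0137) and KRT5, which had 1 and 0 counts with sgDual2 and 24 and 17 with sgDual3, at least 6.82-fold higher. In all, 0.883% of genes differed between them. Between sgP2D and sgP2G, where 1.69% of genes differed, KRT7 was lower with sgP2D (0.503 and 0.7097 against 1.23 and 1.66 CPM, log2 change -1.22, SE 0.27, adjusted p = 0.0395) and KRT5 was at least 6.77-fold higher with sgP2G. KRT5 was thus the member that differed in all 3 guide pairs.

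**Figure D4:**
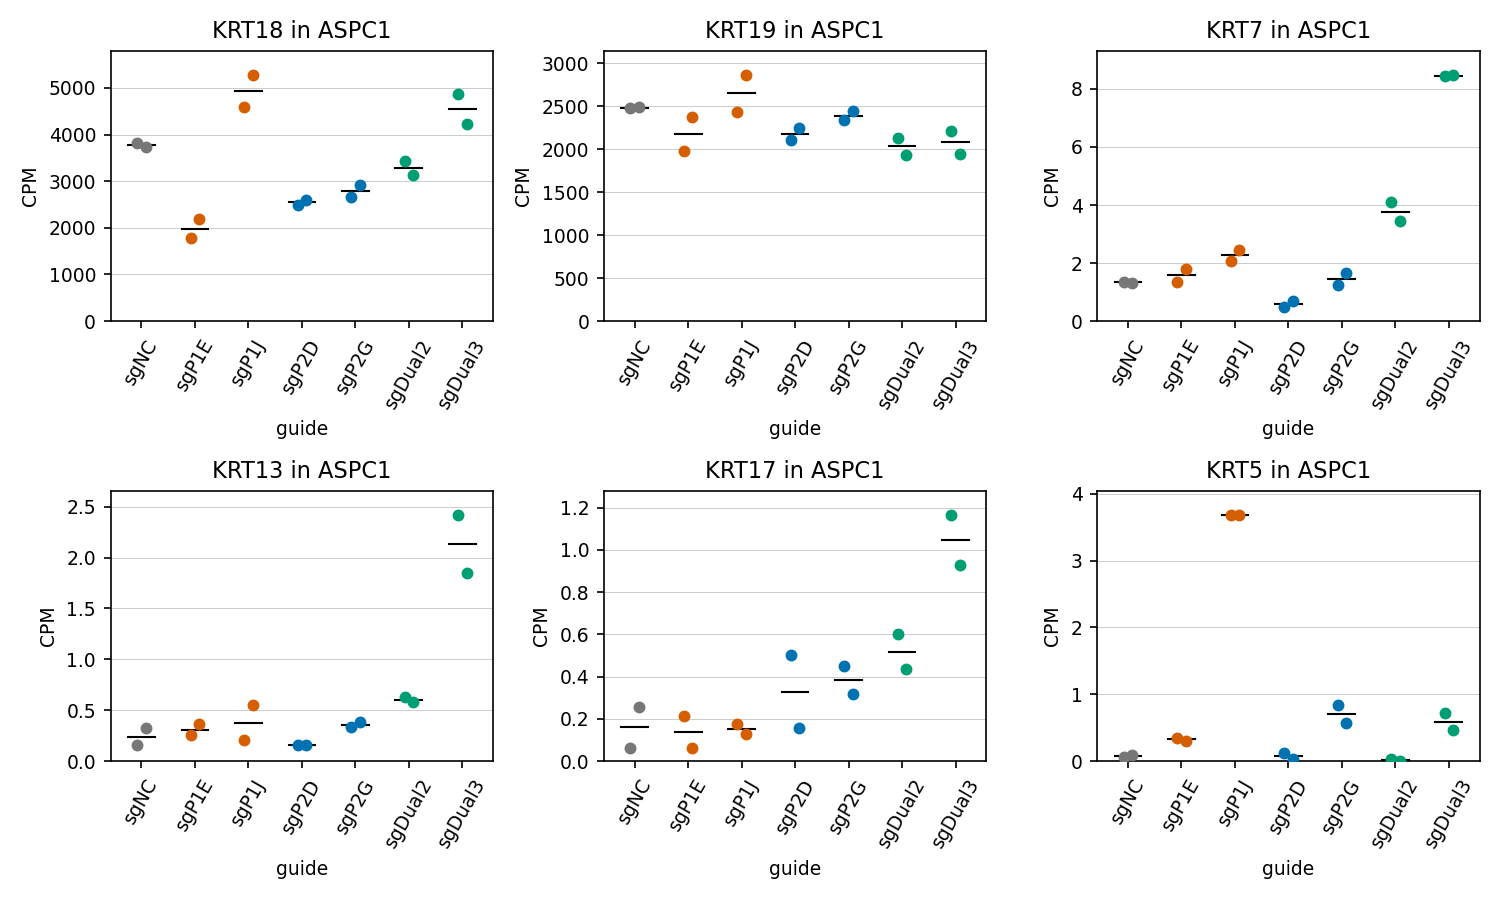
Level in CPM of 6 keratins in each ASPC1 library by guide; points are libraries and lines are means of 2. KRT18 lies between 1779 and 2183 CPM with sgP1E and between 4589 and 5271 with sgP1J, and KRT7, KRT13 and KRT17 are highest with sgDual3.

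Of the 5 partner keratins (KRT8, KRT14, KRT16, KRT6B and KRT6C), 3 were higher and 1 lower with P1-a2 against NC in BxPC3, and 1 of 3 tested was higher and 2 lower in Panc10.05, where 32% and 62% of all genes passed. In BxPC3, KRT14 (the type I partner of KRT5) rose, while KRT5 did not pass in the main fit. KRT14 went from 68.4 and 80.5 CPM to 118 and 149 with P1-a2 (log2 change 0.84, SE 0.12, adjusted p = 0.00175) and 137 and 149 with P2-a8 (0.94, SE 0.12, adjusted p = 0.00449). KRT16, a partner of KRT6A, rose with P1-a2 (0.76, SE 0.17, adjusted p = 0.00629), while KRT6B fell (-0.45, adjusted p = 0.0261). KRT6A, KRT6B and KRT6C are near-identical and the handling of reads that map to several genes is not given in the sources used here. In Panc10.05, KRT16 fell with both isoforms, from 2.16 and 2.61 CPM to 0.334 and 0.196 with P1-a2 (-3.18, SE 0.33) and 1.07 and 0.789 with P2-a8 (-1.33, SE 0.26), alongside KRT17 and KRT6A. KRT14 passed the filter on low counts there only through the controls, and was at least 5.28-fold lower with P1-a2. No partner keratin passed in ASPC1 in any of the 6 comparisons.

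Among the other 53 keratin genes of the reference, 11 were tested in BxPC3, 7 in Panc10.05 and 4 in ASPC1. With P1-a2 against NC, 3 of the 11 passed in BxPC3 and 5 of the 7 in Panc10.05, near the shares of all genes (32% and 62%). KRT80 was lower with P1-a2 in both lines (log2 change -0.66 in BxPC3 and -0.40 in Panc10.05), and KRT81 rose in Panc10.05 with P2-a8 from 1.41 to 14.5 CPM (3.34, SE 0.17). Of 16 desmosome and filament linker genes, which anchor keratins to junctions, 3 were higher and 5 lower with P1-a2 against NC in BxPC3 (32% of all genes passed), with DSC2 at 0.86, DSC3 at -0.45 and PKP1 at -0.40. In ASPC1 with the dual guides 5 were higher and 1 lower, a count near the 35.6% of all genes, with the largest change in PPL, a plakin that binds keratin, from 10.2 to 77.5 CPM (2.93, SE 0.30), and DSC3 (1.43).

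Among the regulators of squamous genes, TP63, which encodes p63, was at 268 to 350 CPM in BxPC3, at most 0.283 in Panc10.05 and 0.146 to 2.92 in ASPC1. In BxPC3 it was lower with P1-a2 than with P2-a8 (278 and 346 CPM on average, log2 change -0.31, SE 0.05, adjusted p = 0.00216) and did not pass against NC (adjusted p = 0.0908). KLF5, an epithelial factor, fell in BxPC3 with P1-a2 from 620 to 347 CPM (-0.84, SE 0.09). OVOL1 also fell (-0.62, SE 0.11), while GRHL3 rose from 4.18 to 6.90 CPM (0.73, SE 0.16). Of the 10 regulators on the list, 1 was higher and 3 lower with P1-a2 against NC in BxPC3, near the 32% of all genes, with a median of -0.13 against -0.01 over all genes. In Panc10.05 7 were tested against NC. There 3 were higher and 2 lower with P1-a2 (62% of all genes passed), and 6 higher and 1 lower with P2-a8 (46.2%).

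Similarity of pattern was described by Pearson's correlation of log2(CPM + 1) over the 26 libraries after centring on each line, among 10677 genes with at least 5 CPM on average. The libraries share lines, groups and tables, so no p is given. KRT18 was most like KRT8 (r = 0.97). KRT7 was most like PLTP (0.93), KRT17 like ARAF (0.92) and ISG15 (0.92), and KRT13 like WNT10A (0.87). KRT4 was most like B3GNT7 (0.83) and KLF5 (0.83), and KRT5 had KRT6A (0.84) among its 3 nearest genes. These values rest mostly on 1 line: BxPC3 held 90.6% of the centred sum of squares of KRT4, Panc10.05 78.5% of that of KRT17, and ASPC1 96.2% of that of KRT5, where it was at most 3.68 CPM, and 94.8% of that of KRT7.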

How the data were processed

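Gene counts from RNA-seq of 26 libraries were used as deposited, 1 table a line, made by the authors with cutadapt 1.16, STAR 2.7.9a and featureCounts 1.6.3 on GRCh38, per the submitters' processing notes, which also list DESeq2 1.36.0. The annotation, strand setting and handling of multimapped reads are not given in the sources used here. Symbols came from the reference gene table and matched 99.9% of the identifiers.

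Counts were filtered (filterByExpr), scaled by TMM and fitted per table with edgeR 4.0.16 (quasi-likelihood test, robust, Benjamini-Hochberg adjustment over all genes tested, threshold 0.05) in R 4.3.3 with limma 3.58.1. Guides were compared in a fit by guide, and lines in a joint fit with an interaction. A library with 3 counts or fewer was taken as at the floor, which covers counting error only. On simulated data, 100 genes were changed by 1 on the log2 scale. Recovery was 99% for P1-a2 against NC in Panc10.05 (17247 genes), 100% in BxPC3 (17635) and 97% for sgP1 against sgNC in ASPC1 (16992). False calls in the same simulations were 11, 19 and 9. Recovery was not split by level or by guide. It therefore does not give the power for keratins at a few counts, or where guides of the same group differ, as sgP1E and sgP1J did. DESeq2 1.42.0, other scalings, filters and left-out libraries were alternatives. Figures used Python 3.11.15 and matplotlib 3.10.9.

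The labels do not say that replicates were separate cultures, so p-values measure the spread between these libraries, which may be technical. Replicates differed by more than sampling noise. In ASPC1 the deviations of same-numbered libraries correlated above 0.1 in every pair for sgP1, sgP2 and sgDual against sgNC (lowest 0.287, 0.217 and 0.131) and for sgP2 against sgP1 (0.255), so the numbers pair these libraries by the data, not the labels. The same held in BxPC3 for P2-a8 against NC (0.131) and P1-a2 against P2-a8 (0.131), but not for P1-a2 against NC (0.0727). The members and lists were chosen with earlier results of these data known. All members are named, with up to 3 genes a list by largest change among called genes with a mean of at least 5 CPM, and other genes were chosen after their values were seen.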

Additional observations from a re-analysis of the deposited data

Results flagged for a closer look

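In 2 of 30 sets of 4 libraries, 1 library stood far from the other 3, and chance flags about 1 in 20 such sets. KRT4 was at 0.391 CPM in sgP1E replicate 2, against 0.0646 to 0.117 in the other P1-guide libraries. KRT20 was at 0.155 CPM in sgP2D replicate 1, against 0.450 to 0.477 in the other P2-guide libraries.

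The responses of several keratins differed between the induced lines by an interaction contrast in edgeR, given as BxPC3 minus Panc10.05 on the log2 scale. For P1-a2 against NC the differences were 6.23 for KRT6A, -3.93 for KRT13, -0.85 for KRT15, 2.79 for KRT17, 0.29 for KRT18 and -0.23 for KRT19. For P2-a8 against NC they were 3.45 for KRT6A, -3.64 for KRT13, 1.66 for KRT17, -0.45 for KRT7 and -0.62 for KRT18. For P1-a2 against P2-a8 they were 1.13 for KRT17, 0.59 for KRT7 and 0.91 for KRT18. The KRT6A values depend on the prior count of the fit, since KRT6A was at the floor in Panc10.05 with either isoform. KRT6A passed the Panc10.05 filter only through the controls and KRT13 only through the isoform groups. Their differences against NC are therefore no separate support for a difference between the lines.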

How the results depend on the processing

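Of 67 called keratin changes, 20 lost the call in at least 1 of their alternatives and 0 changed sign, over 681 alternatives. Depth limits the keratins at a few counts, which are KRT20 in each line and KRT4, KRT5 and KRT6A outside BxPC3. It also limits KRT13 in the Panc10.05 and ASPC1 controls and KRT17 in the ASPC1 controls. Where 1 library was left in a group, it is assumed to vary like the others. Causes of these shifts were not tested.

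Adding a limit of 1 on the absolute log2 change left 3385, 1663 and 1455 genes in Panc10.05 (P1-a2 against NC, P2-a8 against NC, P1-a2 against P2-a8), 1242, 364 and 526 in BxPC3, and in ASPC1 23 for sgP1, 185 for sgP2 and 1539 for sgDual against sgNC, 161 for sgP2 against sgP1, and 1143 and 1745 for sgDual against sgP1 and sgP2. Keratins left were 3, 3 and 1 in Panc10.05 and 2, 0 and 1 in BxPC3. With only the groups compared in the fit, sgP1 and sgP2 against sgNC and sgP2 against sgP1 gave 7, 1103 and 189 genes, and DESeq2 gave 248, 1148 and 1272. Without a filter on low counts sgP1 against sgNC gave 81 and BxPC3 P2-a8 against NC 1982.

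The replicate numbers do not pair the libraries in Panc10.05, where deviations of same-numbered libraries correlated at -0.0119 to 0.00733 (over 0.1 in 0 of 3 pairs). In BxPC3 the correlations were 0.0727 to 0.131 (over 0.1 in 2 of 3 pairs). There the numbers pair P2-a8 with NC and with P1-a2, but not P1-a2 with NC. Nor do they pair the libraries for sgDual against sgP1 or sgP2 (over 0.1 in 4 of 6 and 2 of 6 pairs). With a replicate block, sgP1 and sgP2 against sgNC gave 127 and 972 genes, sgP2 against sgP1 1204, BxPC3 P2-a8 against NC 2886 and P1-a2 against P2-a8 5992. In BxPC3 the block also gave 9 of 9 keratins for P1-a2 against NC, adding KRT5 (adjusted p 2.39e-05), KRT7 (0.0118) and KRT19 (0.0242) as lower, and KRT5 as higher for P2-a8 against NC (0.000231). It removed KRT13 for Panc10.05 P1-a2 against P2-a8 (0.0602) and KRT6A for sgDual against sgP1 (0.0555), and added KRT18 between the dual guides (0.0117), KRT19 between the P1 guides (0.0252) and KRT15 for the difference of P1-a2 against P2-a8 between the lines (0.0187). It changed no other keratin call.

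With 1 guide left out, sgP1 against sgNC gave 262 genes without sgP1E and 1242 without sgP1J, sgP2 against sgNC 322 without sgP2D and 293 without sgP2G, sgP2 against sgP1 2764 without sgP1E, 306 without sgP2D and 411 without sgP2G, and sgDual against sgP1 4320 without sgDual3. With 1 library left out, genes ran from 1 to 144 for sgP1, 57 to 466 for sgP2 and 2775 to 5555 for sgDual against sgNC, 324 to 1208 for sgP2 against sgP1, 495 to 927 for BxPC3 P2-a8 against NC and 2538 to 3013 for P1-a2 against P2-a8.

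Keratins called for sgDual against sgNC were 5 with both groups only, 1 without sgDual3 and 1 to 3 with 1 library left out. They were 1 for sgP1 against sgNC without either guide, 1 for sgP2 against sgNC with both groups only, and 3 for sgP2 against sgP1 without sgP1E. For BxPC3 P2-a8 against NC they were 1 with DESeq2, median-ratio factors or total counts and 0 to 1 with 1 library left out, and for Panc10.05 P1-a2 against P2-a8 2 to 4.

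Changes that had not passed reversed in some alternatives. For sgP2 against sgP1, KRT15 was 0.081 and KRT18 0.43, KRT19 0.070 and KRT5 0.28 on the log2 scale, the first without sgP1E and the others without sgP1J, and with 1 library left out KRT15 ran from -0.21 to 0.060 and KRT19 from -0.17 to 0.013. KRT18 for sgDual against sgNC was -0.20 without sgDual3 (-0.070 to 0.15 with 1 library left out), and against sgP1 -0.074 without sgDual3 and -0.32 without sgP1E (-0.034 to 0.46). For sgP1 against sgNC without sgP1E, KRT18 was 0.38 (-0.40 to 0.088 with 1 library left out) and KRT19 0.088 (-0.13 to 0.040). KRT7 for sgP2 against sgNC was 0.10 without sgP2D. With 1 library left out, KRT15 ran from -0.00014 to 0.28 for sgP2 against sgNC, -0.065 to 0.21 for BxPC3 P2-a8 against NC and -0.18 to 0.076 for Panc10.05 P1-a2 against P2-a8, KRT6A from -0.095 to 0.051 for BxPC3 P2-a8 against NC, and KRT7 from -0.14 to 0.075 for BxPC3 P1-a2 against P2-a8.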
